A study of Mus musculus with 4 samples.

Results

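Insulin-low beta-like cells are islet cells that carry a beta cell transcription factor and a measurable but small amount of insulin mRNA. They were chosen by measured values: at least 500 genes and 3000 unique molecular identifiers (UMIs, 1 per captured transcript), at most 20% mitochondrially encoded UMIs, Ins1 plus Ins2 at 3% or more and below 10% of UMIs, each of the hormone genes Gcg, Sst, Ppy and Pyy below 1%, and at least 1 UMI of Pdx1 or Nkx6-1. These thresholds found 202 of 43205 kept cells in 4 libraries. Insulin-rich cells, to which they are compared, met the same rule with 10% or more insulin UMIs and numbered 21673. Insulin-trace cells, below 3%, numbered 259.

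The cells came from pancreatic islets of male mice aged 8 weeks, profiled by 3' single-cell RNA sequencing on a microwell platform with 1 library per group. Cre-positive mice carried Tet2(flox/flox)Tet3(flox/flox) with Pdx1 cre+, and Cre-negative mice carried the same floxed alleles with Pdx1 cre-. IHG offspring were born to mothers with intrauterine hyperglycemia, and control offspring to control mothers. The question was what lies behind poor glucose tolerance and insulin secretion in such offspring. Pdx1-Cre acts throughout the pancreatic epithelium rather than in beta cells alone, and the 3' tags do not check the deletion. Islets were pooled in tubes, cultured and dissociated with trypsin, and the labels do not say how many mice a library holds. No comparison between groups therefore has a replicate check, and its intervals are 95% intervals of counting error only.

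In a mature mouse beta cell, Pdx1, Nkx6-1, Neurod1 and Mafa act together on the insulin genes, and GLUT2 (Slc2a2) and the ATP-sensitive potassium channel couple glucose to secretion. Mafa, Slc2a2 and the peptide hormone Ucn3 appear late as beta cells mature. Neurog3 and Fev are transcription factor genes that mark endocrine precursors, and dedifferentiating mouse beta cells are known to lose the late genes.

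The promoters of 4 genes that the results turn on are shown with the tetramer TAAT, read on either strand (TAAT or ATTA), in capitals, since it is the core that homeodomain factors such as Pdx1 and Nkx6-1 bind. Ins1 is part of the rule, Slc2a2 and Ucn3 were lower in insulin-low cells and Fev was higher. Each stretch runs from 250 bases before to 50 bases after the RefSeq start (GRCm38.p6), 5' to 3' on the gene's strand, at chr19:52264047-52264346 (+) for Ins1, chr3:28697653-28697952 (+) for Slc2a2, chr13:3945300-3945599 (-) for Ucn3 and chr1:74885359-74885658 (-) for Fev.
Ins1: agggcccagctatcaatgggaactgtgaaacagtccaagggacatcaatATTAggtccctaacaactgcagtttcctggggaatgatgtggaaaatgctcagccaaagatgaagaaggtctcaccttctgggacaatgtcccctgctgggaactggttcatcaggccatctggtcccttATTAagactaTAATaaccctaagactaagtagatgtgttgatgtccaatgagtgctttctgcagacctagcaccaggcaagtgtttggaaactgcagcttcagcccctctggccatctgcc
Slc2a2: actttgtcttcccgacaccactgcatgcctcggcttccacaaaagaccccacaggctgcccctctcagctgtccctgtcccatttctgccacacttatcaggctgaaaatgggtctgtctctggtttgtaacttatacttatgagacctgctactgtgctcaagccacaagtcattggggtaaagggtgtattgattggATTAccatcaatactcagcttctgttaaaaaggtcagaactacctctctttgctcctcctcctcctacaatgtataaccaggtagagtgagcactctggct
Ucn3: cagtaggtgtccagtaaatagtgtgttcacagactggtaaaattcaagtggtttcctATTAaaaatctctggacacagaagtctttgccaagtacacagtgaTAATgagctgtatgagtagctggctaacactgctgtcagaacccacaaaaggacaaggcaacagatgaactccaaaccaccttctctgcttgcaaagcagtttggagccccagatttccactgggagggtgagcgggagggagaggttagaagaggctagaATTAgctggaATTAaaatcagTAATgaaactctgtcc
Fev: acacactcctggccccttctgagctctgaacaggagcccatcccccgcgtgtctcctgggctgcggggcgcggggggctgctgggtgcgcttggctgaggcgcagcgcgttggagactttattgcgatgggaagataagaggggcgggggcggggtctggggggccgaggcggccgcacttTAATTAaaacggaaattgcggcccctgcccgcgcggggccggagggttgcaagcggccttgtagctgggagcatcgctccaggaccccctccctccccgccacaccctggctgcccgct
The tetramer occurred 3 times in the Ins1 stretch, 1 time in Slc2a2, 5 times in Ucn3 and 2 times in Fev, where both overlap. Of 32851 promoters of this length, 19064 (58%) held it, with a median of 1, so a match is a description and not a binding site.

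The deposited matrices held 6421 to 16459 barcodes and 52489846 to 109110492 UMIs per library. Cells with 20 or more UMIs of an endothelial marker list, which should lack insulin mRNA, numbered 490 in the Cre-positive, 70 in the Cre-negative, 326 in the IHG offspring and 447 in the control offspring library and had median insulin shares of 0.191%, 0.202%, 0.233% and 0.41% in that library order, with 90th percentiles of 0.412%, 0.477%, 17.2% and 2.09%. Scrublet's automatic threshold marked 1.67% of Cre-positive, 0.101% of Cre-negative, 4.39% of IHG and 0% of control offspring cells as doublets, so it had not worked in 2 libraries and no cell was removed by it. Pairs of libraries shared 51 to 220 barcodes among kept cells. Between 0 and 5 members per pair had their barcode in the other library, and none was a member in both.

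The Cre-positive library held 31 insulin-low cells, the Cre-negative library 107, IHG offspring 30 and control offspring 34. Their median depth was 5168 UMIs in the Cre-positive, 6651 in the Cre-negative, 5842 in the IHG and 4464 in the control offspring library, against 10528, 10268, 9127 and 6129 UMIs in insulin-rich cells in that library order. Insulin-low cells were thus the shallower class in every library. The median mitochondrial share was 6.58% to 8.25% in insulin-low and 7.9% to 9.03% in insulin-rich cells. Median insulin shares, which the rule fixed, were 7.02% to 7.95% against 22.7% to 30.2%.

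Nkx6-1, the homeodomain factor that keeps beta cells from other endocrine fates, carried the rule in nearly every cell: its UMIs were found in 31 of 31 Cre-positive, 106 of 107 Cre-negative, 30 of 30 IHG and 33 of 34 control offspring members. Pdx1 was found in 9, 36, 13 and 6 members of those libraries in turn. Among genes outside the rule, the summed level of 11 beta cell markers varied widely from cell to cell, with 27.7 as the lowest, 348 as the median and 1361 as the highest number of marker UMIs per 10000 over the 202 cells. The medians were 394 in the Cre-positive, 328 in the Cre-negative, 516 in the IHG and 329 in the control offspring library, and the ranges of the 4 libraries overlapped. Iapp supplied 43554 of the 45805 UMIs of the list (95.1%), so it is close to an Iapp level. After thinning to 2000 UMIs the median number of list UMIs was 75 in Cre-positive, 65 in Cre-negative, 98.5 in IHG and 64 in control offspring members, against 1, 1, 1 and 2 in endothelial-marker cells and 167, 161.5, 191 and 170 in insulin-rich cells in that library order. Members thus stood between both classes, although the endothelial-marker class leaves out insulin-low and insulin-rich cells by definition. Summed over cells the list's level was 34875 to 59195 CPM in insulin-low against 81830 to 95501 CPM in insulin-rich cells over the 4 libraries. CPM here and below are UMIs per 1000000 UMIs of genes outside the rule, summed over cells of a class.

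**Figure D1:**
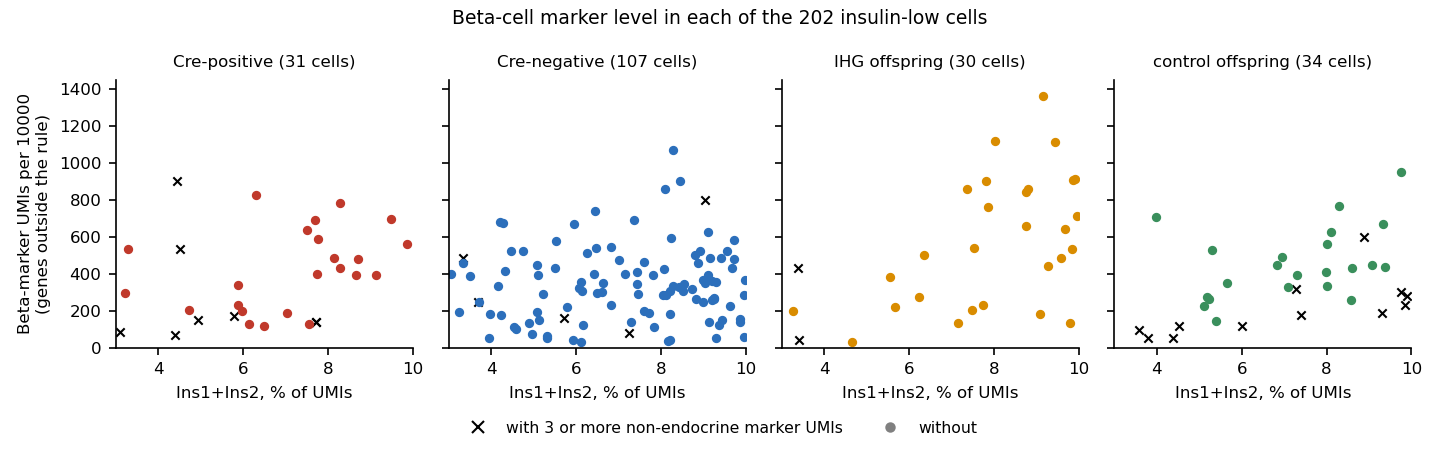
Each point is 1 of the 202 insulin-low cells, with Ins1 plus Ins2 as a percentage of its UMIs on the x axis and UMIs of 11 beta cell markers outside the rule per 10000 UMIs on the y axis, by library. Crosses mark cells with 3 or more UMIs summed over the endothelial, mesenchymal and macrophage lists, which is not exactly the set called marker-carrying in the text. They make up 12 of 34 cells in control offspring and 2 of 30 in IHG offspring, and levels run from 27.7 to 1361.

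The mouse has 2 insulin genes, and the rule used only their sum. Ins1 made up 16.4% (15.8 to 17) of insulin UMIs in Cre-positive, 10.9% (10.6 to 11.2) in Cre-negative, 10.3% (9.81 to 10.8) in IHG and 15.2% (14.6 to 15.8) in control offspring insulin-low cells, against 23.8%, 20.3%, 24.2% and 22.8% in insulin-rich cells in that library order. Insulin-low cells thus held relatively less Ins1 and more Ins2 mRNA in 4 of 4 libraries. The shares averaged 13.2% ± 3.05 in insulin-low and 22.8% ± 1.75 in insulin-rich cells (SD, n = 4 libraries each), a difference of -9.56 ± 3 points with a two-sided exact sign-flip permutation p of 0.125, the smallest that 4 pairs allow. The cells were sorted by the sum of these same 2 genes, so their split need not be independent of the rule. The p is therefore no support for a difference, and the shares are a description. Both genes are close paralogs, and how reads that match both were counted is not stated. In the endothelial-marker cells Ins1 made up 21.1%, 16.4%, 23.8% and 21.9% in that library order.

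Markers of other cell types were present in part of the insulin-low cells, and unevenly. With each cell thinned to 2000 UMIs, 3 or more UMIs of 10 endothelial genes were found in 16.1% of Cre-positive, 0% of Cre-negative, 6.67% of IHG and 35.3% of control offspring insulin-low cells, against 1.72%, 0.109%, 0.959% and 1.22% of insulin-rich cells in that library order. Mesenchymal genes reached this level in 29.4% of control offspring members and macrophage and leukocyte genes in 9.68% of Cre-positive members. The unthinned count of members with 3 or more UMIs of a non-endocrine list (endothelial, macrophage, mesenchymal, acinar, neural or red cell), called marker-carrying below, was 8 in the Cre-positive, 6 in the Cre-negative, 2 in the IHG and 12 in the control offspring library. All 12 of the last carried endothelial and 11 also mesenchymal genes. Gene lists below were also counted without these cells.

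Delta and alpha cell genes were found in some insulin-low cells too. The thinned share with 3 or more UMIs of 6 delta cell genes was 6.45% in Cre-positive, 16.8% in Cre-negative, 6.67% in IHG and 0% in control offspring insulin-low cells, against 0.585%, 6.96%, 0.993% and 0.0984% of insulin-rich cells. For 7 alpha cell genes it was 9.68%, 22.4%, 10% and 8.82% of insulin-low cells, against 8.47%, 9.86%, 5.94% and 7.78% of insulin-rich cells, in that library order. The widest alpha difference was in the Cre-negative library, and the delta share was above its insulin-rich share in 3 of 4 libraries. In summed CPM the delta list ran from 122 to 567 in insulin-low and 68.4 to 294 in insulin-rich cells, the alpha list from 359 to 748 and 401 to 504. Endothelial genes ran from 44.9 to 7662 CPM in insulin-low and 37.9 to 189 CPM in insulin-rich cells, macrophage and leukocyte genes from 12.4 to 1005 and 23.1 to 72.6, mesenchymal genes from 6.2 to 2258 and 7.28 to 53.9, and red cell genes from 0 to 264 and 0.927 to 30.8. Ductal genes (224 to 425 against 323 to 425 CPM), neural genes (6.78 to 114 against 24 to 31.9) and acinar genes (0 to 6.78 against 0.524 to 2.78) completed the lists. The defining ductal genes Krt19, Sox9 and Cftr and the acinar genes Cela2a, Prss2 and Pnlip had no UMI in any of the 202 members. Of the top 6% of doublet scores per library, 3 Cre-positive, 14 Cre-negative, 1 IHG and 4 control offspring members were part (9.68%, 13.1%, 3.33% and 11.8%), against 4.05% to 4.77% of insulin-rich cells. The part of doublets and of cells of other types in the results was not tested beyond the fits without these cells.

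**Figure D2:**
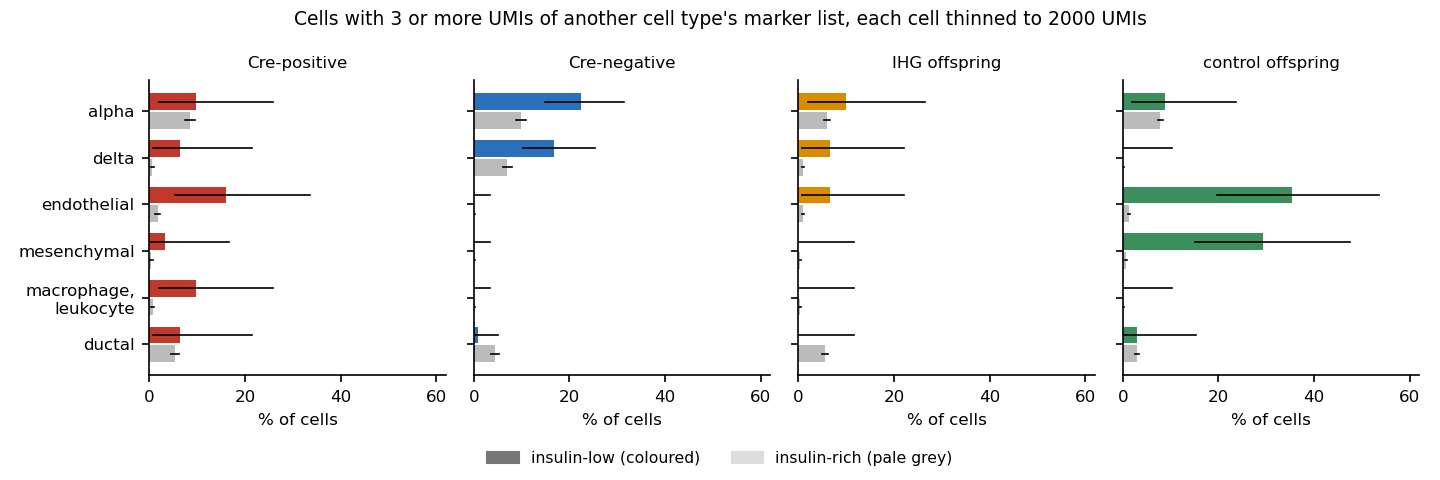
Bars give the percentage of cells with 3 or more UMIs of a marker list after thinning each cell to 2000 UMIs, for insulin-low (coloured, upper bar) and insulin-rich cells (grey, lower bar) of each library, and lines the exact binomial 95% interval. Endothelial and mesenchymal genes stand highest in control offspring (35.3% and 29.4% of insulin-low cells), alpha and delta genes in the Cre-negative library (22.4% and 16.8%).

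Set against insulin-rich cells of the same library, insulin-low cells had lower levels of every late beta cell marker tested and higher levels of some genes of endocrine precursors, alpha cells and vessels. Sums of UMIs for each class of each library entered the test, and 12900 genes were compared over the 4 pairs with edgeR's quasi-likelihood test, library as a block and Benjamini-Hochberg adjustment, as are all adjusted p-values below. At an adjusted p under 0.05 and at least 1.5-fold, 576 genes were higher (4.47%) and 324 lower (2.51%), with a median log2 change of -0.07 over all genes. Without marker-carrying cells 209 of 12496 genes were higher (1.67%) and 283 lower (2.26%), of which 141 and 236 were also called with all cells. Without the control offspring library 352 genes were higher and 286 lower. With the insulin and other rule genes kept in the totals the split was 1840 higher and 80 lower and the median log2 moved to 0.40, so changes are given relative to the non-rule UMIs. The cells were sorted by insulin in the same measurement, so these p-values say which other genes went with the insulin share over 4 libraries that each stand for another condition. The SE given with a log2 change is that change divided by the square root of the test's F statistic. It rests on the dispersion of the model and is not the spread over the 4 pairs. Pairs can differ by more, as the CPM of Mafa and Ucn3 below show.

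All 11 beta cell markers outside the rule were lower, with and without marker-carrying cells (median log2 -1.92 and -1.88). Mafa (chromosome 15, 75745490 to 75748228, GRCm38, minus strand), the transcription factor that activates the insulin genes in mature beta cells, stood at 138 CPM in insulin-low against 777 CPM in insulin-rich cells of the Cre-positive library, at 25.4 against 653 CPM in the Cre-negative library, at 149 against 1420 CPM in IHG offspring and at 278 against 2080 CPM in control offspring. The 2 classes did not overlap, and the Cre-negative members were lowest. Mafa fell 10.6-fold (log2 -3.41 ± 0.21 SE, adjusted p = 7e-18; -3.69 without marker-carrying cells). After thinning, a Mafa UMI was found in 19.4% of Cre-positive, 4.67% of Cre-negative, 10% of IHG and 26.5% of control offspring insulin-low cells (41.9%, 11.2%, 13.3% and 38.2% unthinned), against 64.2%, 54.1%, 80.4% and 93% of insulin-rich cells. Endothelial-marker cells, with median depths of 4370 to 4820 UMIs, showed 8.16%, 1.43%, 13.5% and 15.7%, above which the IHG members' share did not rise. The IHG endothelial-marker cells held a Pdx1 or Nkx6-1 UMI in 24.8% of cells, against 5.71% to 13.2% in the other libraries, so no Mafa background is read from them.

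Slc2a2 (chromosome 3, 28697903 to 28731359, plus strand), the glucose transporter GLUT2, stood at 109 CPM in insulin-low against 412 CPM in insulin-rich cells of the Cre-positive library, at 175 against 981 CPM in the Cre-negative library, at 143 against 1110 CPM in IHG offspring and at 224 against 1180 CPM in control offspring. Every insulin-low value lay below every insulin-rich value (log2 -2.56 ± 0.18 SE, adjusted p = 4.28e-16). G6pc2 (chromosome 2, 69211073 to 69227841, plus strand), the islet glucose-6-phosphatase, stood at 592 against 1920 CPM in the Cre-positive, 182 against 2220 in the Cre-negative, 353 against 2480 in the IHG and 475 against 2040 CPM in the control offspring library, again without overlap (log2 -2.67 ± 0.20 SE, adjusted p = 7.33e-15). Ucn3 (chromosome 13, 3940688 to 3945349, minus strand), a peptide that beta cells release to act on delta cells, stood at 436 against 805 CPM in the Cre-positive, 10.5 against 261 in the Cre-negative, 248 against 1370 in the IHG and 346 against 1490 CPM in the control offspring library. Ucn3 was lower in each pair (log2 -2.32 ± 0.23 SE, adjusted p = 6.31e-11), although the classes overlap across libraries because the Cre-negative insulin-rich level is itself low. In the Cre-positive library 44 of its 76 UMIs came from 1 cell.

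Iapp (chromosome 6, 142298423 to 142303961, plus strand), the hormone amylin that is packed with insulin, was less reduced, at 40300 against 77700 CPM in the Cre-positive, 33200 against 74500 in the Cre-negative, 57000 against 84300 in the IHG and 34700 against 75800 CPM in the control offspring library (log2 -1.06 ± 0.26 SE, adjusted p = 3.99e-03). Other markers lay between these. They were Trpm5, a calcium-activated cation channel (log2 -3.20), the granule effector Sytl4 (-1.92), the proinsulin oxidase Ero1lb (-1.91), the granule zinc transporter Slc30a8 (-1.73), Ppp1r1a (-1.30) and the prohormone convertase Pcsk1 (-1.07), each lower in 4 of 4 libraries and past the test. The 12 genes with the largest decrease were led by Gad1, the enzyme that makes GABA (26.8 ± 12.4 CPM in insulin-low and 342 ± 186 CPM in insulin-rich cells, SD, n = 4 libraries each; log2 -3.77 ± 0.23 SE, adjusted p = 7e-18). They also held Tmem215 (-3.00), Car10 (-2.99), Frmd5 (-2.80), Gpr158 (-2.69), Igfals (-2.69), Prss53 (-2.52) and the purinergic receptor P2ry1 (-2.41) beside Mafa, Trpm5, G6pc2 and Slc2a2.

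**Figure D3:**
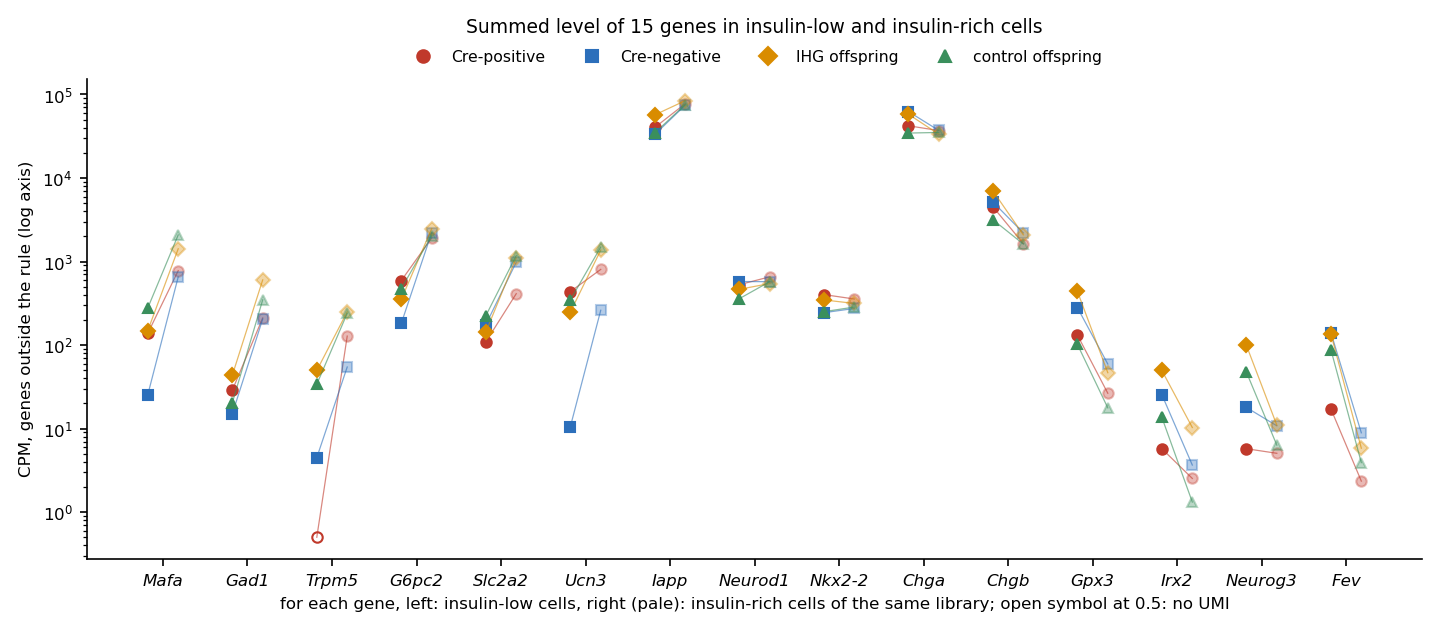
Summed CPM of 15 genes on a log axis, with insulin-low cells at left (filled) and insulin-rich cells of the same library at right (pale) joined by a line for each of the 4 libraries; the open symbol stands for no UMI. Lines slope up to the right for Mafa, Gad1, Trpm5, G6pc2, Slc2a2, Ucn3 and Iapp, and down for Chgb, Gpx3, Irx2, Neurog3 and Fev; Neurod1, Nkx2-2 and Chga did not pass the test.

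The decrease was uneven within the gene lists for beta cell function. Of 19 tested genes for glucose sensing, receptors and channels, 10 were lower and none higher (median log2 -0.63, against -0.07 for all genes), 4 of them also on the beta marker list. Without marker-carrying cells 9 of 19 were lower and none higher. The others included the incretin receptor Glp1r (-1.34), the calcium pumps Atp2a2 (-1.06) and Atp2a3 (-1.08), the fatty acid receptor Ffar1 (-1.06) and pyruvate carboxylase Pcx (-0.91). The potassium channel subunit Kcnj11 (-0.63) was lower with all cells but not without marker-carrying ones (-0.50, adjusted p = 0.0925). The sulfonylurea receptor Abcc8 did not pass the test, at 373 to 546 CPM in insulin-low and 422 to 612 CPM in insulin-rich cells.

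Of 17 beta cell transcription factors, Mafa and Mnx1 (log2 -0.94 ± 0.24 SE, adjusted p = 0.00536) were lower, in both sets of cells, and the median log2 over the list was -0.23. Neurod1, which binds the insulin promoter, stood at 528 against 656 CPM in the Cre-positive, 576 against 574 in the Cre-negative, 465 against 545 in the IHG and 359 against 575 CPM in the control offspring library (log2 -0.38 ± 0.15 SE, adjusted p = 0.14). Nkx2-2 stood at 244 to 402 CPM in insulin-low and 274 to 356 CPM in insulin-rich cells and did not pass the test either. Of 15 exocytosis genes 2 were lower, Sytl4 among them, and none was higher, in both sets of cells.

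Granule genes moved in both directions. Of 18 genes for granule proteins and prohormone processing, 8 were lower and 1 higher with all cells (median log2 -0.52), and 7 were lower and 2 higher without marker-carrying cells (-0.30). Of the 8, 4 are also beta markers. Chgb, chromogranin B (chromosome 2, 132781278 to 132795079, plus strand), stood at 4530 against 1640 CPM in the Cre-positive, 5180 against 2200 in the Cre-negative, 7020 against 2090 in the IHG and 3170 against 1620 CPM in the control offspring library. All insulin-low values lay above all insulin-rich ones (log2 1.25 ± 0.17 SE, adjusted p = 2.92e-07). Secretogranin 2, Scg2 (-1.10), and the neuropeptide precursor Vgf (-1.64) were lower, as were the signal peptidase subunit Sec11c (-0.96) and carboxypeptidase E, Cpe (-0.63). Cpe was not called without marker-carrying cells (-0.46, adjusted p = 0.116). Chromogranin A, Chga, with 34500 to 62500 CPM in insulin-low and 33400 to 37100 CPM in insulin-rich cells, did not pass the test (adjusted p = 0.574).

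Genes that were higher in insulin-low cells fell into those carried by the marker-carrying cells and those that were not. The 12 with the largest increase over all cells were Bmp6 (log2 4.81), Vim (4.67), Cd34 (4.54), Afap1l1, Ramp3, Arhgef15, Nid1, Sparc (4.41), Ptpn14, Dab2, Gata2 and Slfn5, of which Cd34, Nid1 and Sparc are known from vessels and their matrix. Several rest on few UMIs. Bmp6 had 2 in Cre-positive, 1 in Cre-negative, 4 in IHG and 9 in control offspring members. Cd34, Ramp3, Dab2 and Gata2 each had 1 Cre-negative UMI, or 1.5 CPM. Insulin-rich levels of these genes were so low that 1 UMI placed the Cre-negative library on the higher side. Of 9 tested endothelial genes all 9 were higher with all cells (median log2 4.04) and 0 of 7 without marker-carrying cells (median 0.01, edgeR). Among macrophage genes Cd74 and C1qb, and among mesenchymal genes Rgs5, were called only with all cells. Marker-carrying cells were chosen by UMIs of these same lists, so the loss of these genes without them follows by construction.

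Without marker-carrying cells, Fev led the genes with higher levels. Fev (chromosome 1, 74881509 to 74885419, minus strand) encodes an ETS transcription factor of endocrine precursors and serotonergic neurons. With all cells it stood at 17.2 against 2.35 CPM in the Cre-positive, 141 against 8.9 in the Cre-negative, 136 against 5.82 in the IHG and 88.1 against 3.91 CPM in the control offspring library. The insulin-low level was higher in each pair and lowest in the Cre-positive library, where it rests on 3 UMIs (log2 4.03 ± 0.33 SE, adjusted p = 1.66e-13; without marker-carrying cells 4.33 ± 0.35, adjusted p = 1.68e-31). The second edgeR fit gave a far smaller adjusted p at a like SE and from fewer cells. Its p-values, that of Gpx3 below included, are therefore not comparable with those of all cells and are not stronger evidence. A Fev UMI was found in 2 of 31 Cre-positive, 48 of 107 Cre-negative, 14 of 30 IHG and 8 of 34 control offspring members. After thinning the shares were 0%, 22.4%, 20% and 17.6% in that library order, against 0.624%, 1.85%, 0.993% and 0.659% of insulin-rich and 2.86%, 1.43%, 4.31% and 4.7% of endothelial-marker cells. Insulin-trace cells held Fev in 16.7%, 27.6%, 49% and 4.35%. That class is mixed: 77.3% of its Cre-positive, 12.2% of its Cre-negative, 20.4% of its IHG and 91.3% of its control offspring cells held 3 or more UMIs of a non-endocrine list. Its Fev shares are therefore not those of beta-like cells alone.

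Fev was rarely found together with Mafa, but was found with Slc2a2. Over all 202 cells a Mafa UMI was present in 42 and a Fev UMI in 72. Fev was found in 4 of the 42 cells with Mafa and 68 of the 160 without, at median depths of 6440 and 5934 UMIs, and 48 of the 72 Fev cells were of the Cre-negative library, in which 12 of 107 members held Mafa. It was found in 30 of the 79 cells with Slc2a2 and 42 of the 123 without, and in 9 of the 43 cells with Ucn3 and 63 of the 159 without. In IHG offspring 9 of 13 cells with Slc2a2 held Fev, against 5 of 17 without. None of Mafa, Slc2a2 and Ucn3 was found in 84 members and all of them in 9. These are counts of detected UMIs at shallow depth, so a gene without a UMI in a cell may still be expressed there. They include cells with non-endocrine markers, of which some held Mafa, while 3 of the 72 Fev cells carried such markers. The part of those cells in these counts was not tested.

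Neurog3 (chromosome 10, 62133090 to 62134763, plus strand), the factor that starts endocrine differentiation, stood at 5.74 against 5.06 CPM in the Cre-positive, 17.9 against 10.8 in the Cre-negative, 99.2 against 11 in the IHG and 47.5 against 6.34 CPM in the control offspring library. Both offspring libraries showed the wider gaps (log2 1.90 ± 0.49 SE, adjusted p = 0.00723; 1.97 without marker-carrying cells). With the Notch target Hes1 (2.08; without those cells 1.10 and higher in 2 of 4 libraries only), Fev and Neurog3 were the 3 of 7 tested progenitor and dedifferentiation genes that were higher; none was lower (median log2 1.10). Aldh1a3, an enzyme known from dedifferentiating beta cells, had 17.2 CPM in Cre-positive, 0 in Cre-negative, 68.2 in IHG and 0 in control offspring insulin-low cells and did not pass the test (adjusted p = 0.58).

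Gpx3, a secreted glutathione peroxidase (chromosome 11, 54902453 to 54910377, plus strand), had 137 CPM in Cre-positive, 276 in Cre-negative, 483 in IHG and 152 CPM in control offspring insulin-low cells without marker-carrying cells, against 26.1, 59.5, 46.5 and 17.7 CPM in insulin-rich cells in that library order. No insulin-low value reached down to the insulin-rich ones (log2 2.61 ± 0.18 SE, adjusted p = 8.67e-45). The other genes among the 12 with the largest increase in that fit were, beside Fev, Tppp (3.63), the opioid precursor Penk (3.55), Vwde (3.28), the protease inhibitor Serpine2 (3.16), Rbm24 (3.13), Irx2 (2.61), the receptor Gpr6 (2.47), Csrp2 (2.46), the potassium channel Kcnk3 (2.45) and Myrf (2.40). Penk stood at 156 CPM in the Cre-negative library but 8.07 to 23.3 CPM in the others. Its Cre-positive level rests on 1 UMI, as does that of Tppp in the Cre-negative library (1.6 CPM). Irx2 in the Cre-positive library (8.07 CPM) and Serpine2 in IHG offspring (6.8 CPM) also stood at the level of 1 UMI. At such low insulin-rich levels 1 UMI can place a library on the higher side. The alpha cell factor Irx2 was higher with all cells (2.38). Irx1 was called without marker-carrying cells only, and 2 of 7 and 3 of 7 alpha genes were called in the 2 fits. Rbp4 (1.87) was the 1 of 3 tested delta cell genes that was higher.

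Among genes that beta cells normally keep low, 6 of 12 tested were higher with all cells (Cd81, Slc16a1, Igfbp4, Ldha, Hk1 and Mgst1), but only the tetraspanin Cd81 of 6 tested without marker-carrying cells. Cd81 stood at 523 against 144 CPM in the Cre-positive, 550 against 449 in the Cre-negative, 595 against 99.1 in the IHG and 631 against 110 CPM in the control offspring library. The Cre-negative pair was the closest (log2 1.67 ± 0.20 SE, adjusted p = 1.58e-08; 1.29 without marker-carrying cells).

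Stress genes split. Of 20 tested genes for ER chaperones and the unfolded protein response, 5 were lower and none higher (median log2 -0.32), namely Sdf2l1 (-0.97), Edem1 (-0.96), Manf (-0.68), Calr (-0.59) and Creld2 (-0.59). Without marker-carrying cells Sdf2l1 and Edem1 remained. Heat shock genes went the other way, with 3 of 12 higher with all cells and 4 of 12 without marker-carrying cells. The HSP70 partner Bag3 stood at 729 against 308 CPM in the Cre-positive, 34.4 against 22.2 in the Cre-negative, 614 against 157 in the IHG and 719 against 189 CPM in the control offspring library. It was higher in 4 of 4 pairs (log2 1.41 ± 0.17 SE, adjusted p = 1.15e-08; 1.55 without marker-carrying cells). Hspa1b (0.62) is nearly identical to Hspa1a, so counting could split their reads. The cell cycle inhibitor Cdkn1a, a p53 target, was higher in both fits (1.66 and 0.80).

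The remaining lists moved little or only with the marker-carrying cells. Of 15 immediate early genes, 4 were higher with all cells (Klf4, Ier3, Zfp36 and Junb) and 0 without marker-carrying cells. Of 15 genes of the integrated stress response, 2 were higher (Atf3 and Ppp1r15a) and 2 lower (Asns and Phgdh) with all cells, and Asns alone was called without them. Of 13 interferon and antigen presentation genes, B2m and Rsad2 were higher with all cells only, and Oasl2, with no UMI in the remaining members, was lower without marker-carrying cells. Of 10 p53 targets 3 were higher (Cdkn1a, Fas and Trp53inp1), and without marker-carrying cells 2 of 9, Cdkn1a and Trp53inp1. Of 25 oxidative phosphorylation genes 2 were lower (Uqcrq and Cox6c; median log2 -0.37), and without marker-carrying cells 1, Ndufa4. None of 26 ribosomal protein genes (-0.03), 14 TET, DNMT and partner genes (-0.06), 9 proliferation, 3 ductal, 3 neural or 3 red cell genes was called. In that edgeR fit 964 of the 12900 genes had an adjusted p under 0.05.

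From the insulin-low to the insulin-rich range the late genes rose within each library, though not at every step between neighbouring bins. In the Cre-negative library, which has the most members, Mafa stood at 9.26 CPM in cells below 3% insulin, 7.81 at 3 to 5%, 32.9 at 5 to 7.5%, 27.5 at 7.5 to 10%, 174 at 10 to 15%, 445 at 15 to 20%, 746 at 20 to 30% and 926 CPM at 30% or more. Fev ran the other way there, with 196, 164, 160, 119, 42.6, 12.1, 4.96 and 1.28 CPM over the same bins. G6pc2 rose over those bins as well, with 97.2 CPM below 3% and 3025 CPM at 30% or more, and Gpx3 fell, with 755 and 31.3 CPM. Cells below 3% are the insulin-trace class. In the Cre-negative library 56.1% of them held 3 or more alpha UMIs after thinning, so the low end is not of beta-like cells alone. In the other libraries the bins inside the rule hold 4 to 19 cells, and their values scatter: Mafa at 3 to 5% insulin stood at 418 CPM in the 4 IHG cells of that bin, 2 of them marker-carrying, against 36.6 CPM in 8 Cre-positive and 42.5 CPM in 5 control offspring cells. At the lower threshold the beta cell list stood at 25472 CPM in the 18 members with 3 to 4% insulin and 26551 CPM in the 26 cells with 2 to 3%, pooled over libraries. Single libraries differed, on 3 to 12 cells each. From 2 to 3% to 3 to 4% the level went from 11485 to 31635 CPM in Cre-positive and from 24913 to 27034 CPM in Cre-negative cells. It went from 63013 to 16177 CPM in IHG and from 5248 to 23846 CPM in control offspring cells. All 6 control offspring cells with 2 to 3% were marker-carrying. At the upper threshold the pooled list stood at 48433 CPM in the 49 members with 9 to 10% and 46332 CPM in the 41 cells with 10 to 11%. Here too libraries differed, with 37454 and 44258 CPM in Cre-negative but 76392 and 55608 CPM in IHG offspring cells. The pooled values therefore do not show that the level is continuous at either threshold.

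**Figure D4:**
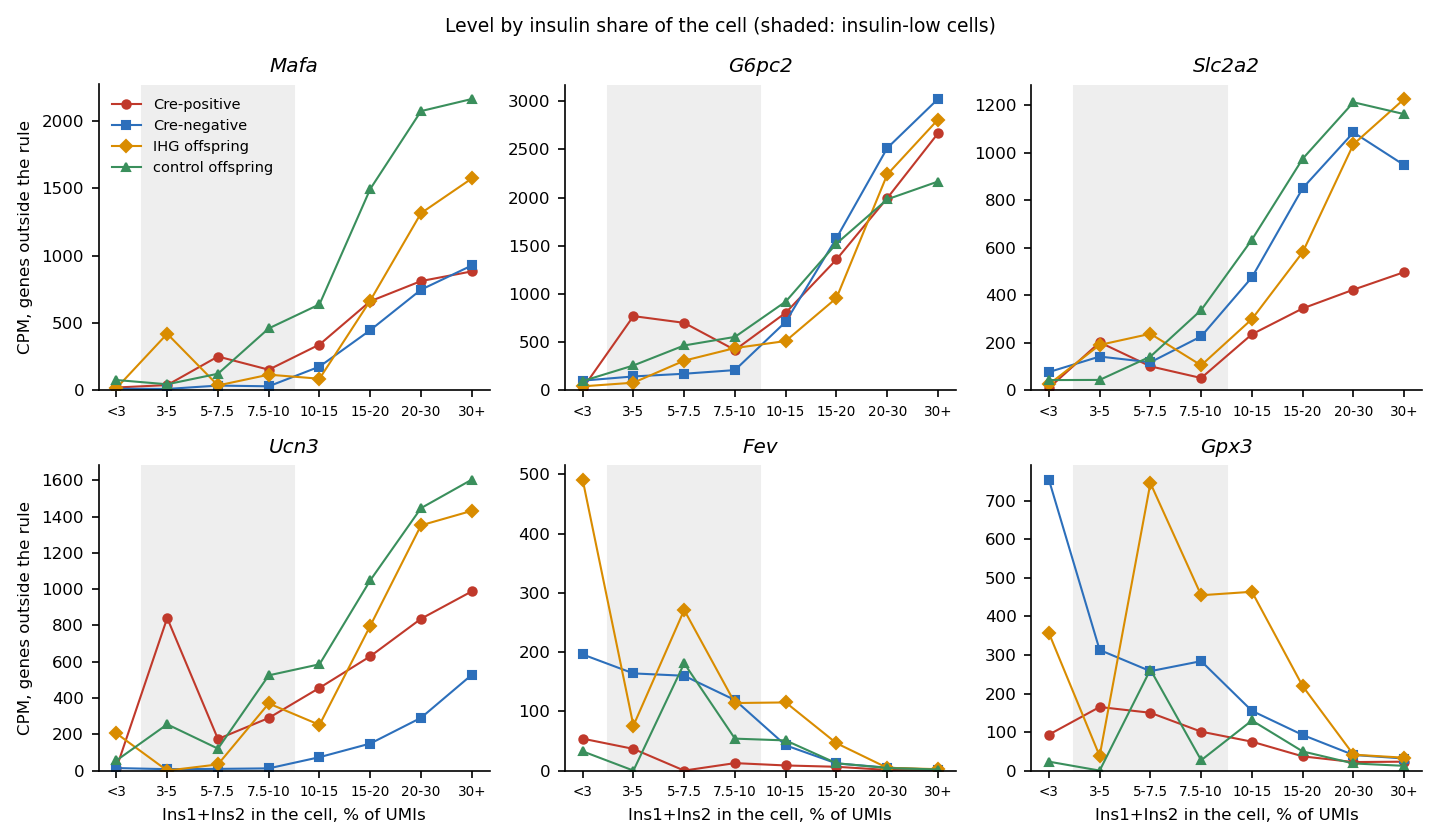
CPM of 6 genes (y axis) in cells binned by Ins1 plus Ins2 as a percentage of UMIs (x axis), with 1 line per library and the insulin-low range shaded. Mafa, G6pc2, Slc2a2 and Ucn3 climb from the shaded bins to the right, while Fev and Gpx3 decline; in the Cre-negative library Fev stands at 164 CPM at 3 to 5% and 1.28 CPM at 30% or more.

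Fewer of the Cre-positive than of the Cre-negative islet cells were insulin-low. They made up 0.323% of kept cells in the Cre-positive (31 of 9587, exact binomial 95% interval 0.22 to 0.459) and 1.8% in the Cre-negative library (107 of 5928, 1.48 to 2.18). Of insulin-low plus insulin-rich cells they made up 1.19% (0.812 to 1.69) and 3.72% (3.06 to 4.48). The intervals do not overlap, but they cover counting error only, and median depth over all barcodes was 5809 and 7373 UMIs. The part of depth and of the cell types captured was not tested beyond the alternatives given at the end. In IHG offspring they made up 0.251% (30 of 11938, 0.17 to 0.359) and in control offspring 0.216% (34 of 15752, 0.15 to 0.301), or 0.506% (0.341 to 0.721) and 0.325% (0.225 to 0.453) of insulin-low plus insulin-rich cells. Leaving marker-carrying cells out of both numbers gave 0.351% (0.223 to 0.526) for Cre-positive and 1.87% (1.53 to 2.27) for Cre-negative mice, and 0.276% (0.183 to 0.398) in IHG and 0.155% (0.0973 to 0.235) in control offspring. The intervals of IHG and control offspring overlap in each of these counts, and with a minimum of 1000 UMIs the order of the shares of kept cells turned (0.268% and 0.451%).

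Between Cre-positive and Cre-negative insulin-low cells, heat shock genes were higher in the Cre-positive library. Fev and Dlk1, genes of endocrine precursors, were lower there, while late beta cell genes did not move together. The sums held 174115 and 668700 UMIs. Of 8494 genes with 20 CPM or more in either library, 1901 were at least 1.5-fold higher (22.4%) and 2266 lower (26.7%), with a median log2 ratio of -0.11. Those whose counting interval also excluded a ratio of 1 numbered 934 (11%) and 666 (7.84%), and without marker-carrying cells 534 (6.46%) and 430 (5.21%) of 8260 genes. With 1 library a group there is no test, and counts of genes below use the size rule with that interval. UMIs of 1 cell are not independent, so the intervals are too narrow.

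All 12 heat shock genes were higher in Cre-positive insulin-low cells (median log2 ratio 1.79; 11 of 12 without marker-carrying cells). Bag3 stood at 729 CPM in Cre-positive and 34.4 CPM in Cre-negative members, a ratio of 21.2 (13.5 to 34.7), with UMIs in 22 of 31 and 20 of 107 cells. Hsph1, the HSP110 chaperone, had a ratio of 12.9 (10.2 to 16.5), the cochaperone Dnaja1 of 5.29 (4.57 to 6.13) and Hspa1a of 3.83 (3.59 to 4.10). The same ratios in insulin-rich cells were 13.9, 6.34, 3.86 and 2.39 for these 4 genes in turn, in the same direction. Without marker-carrying cells the interval of Hspb1 included 1 (ratio 1.27, 0.836 to 1.89).

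Other stress lists were higher in part. For ER chaperones and the unfolded protein response, 9 of 20 genes were higher and none lower in the Cre-positive library in both sets of cells, with Herpud1 at a ratio of 3.37 (2.84 to 3.99) and the chaperone Hspa5 (BiP) at 2.00 (1.82 to 2.19). Of 14 measured genes of the integrated stress response, 8 were higher and 1 lower, and without marker-carrying cells 7 and 1 of 13. Atf3 had 253 CPM in Cre-positive and 17.9 CPM in Cre-negative members, a ratio of 14.1 (7.31 to 29.3), and Nupr1 a ratio of 9.6 (2.77 to 41.9). Trib3 was not resolved at this depth, with 5 and 9 UMIs (ratio 2.13, 0.562 to 7.09; 22.6 in insulin-rich cells). Ddit4 went against the list, with 68.9 CPM in Cre-positive and 393 CPM in Cre-negative members (ratio 0.175, 0.0894 to 0.311). Of 15 immediate early genes 5 were higher and 4 lower, and without marker-carrying cells 4 and 3 of 14, with Fosb at a ratio of 2.81 (2.47 to 3.19) and Fos at 0.541 (0.470 to 0.621).

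**Figure D5:**
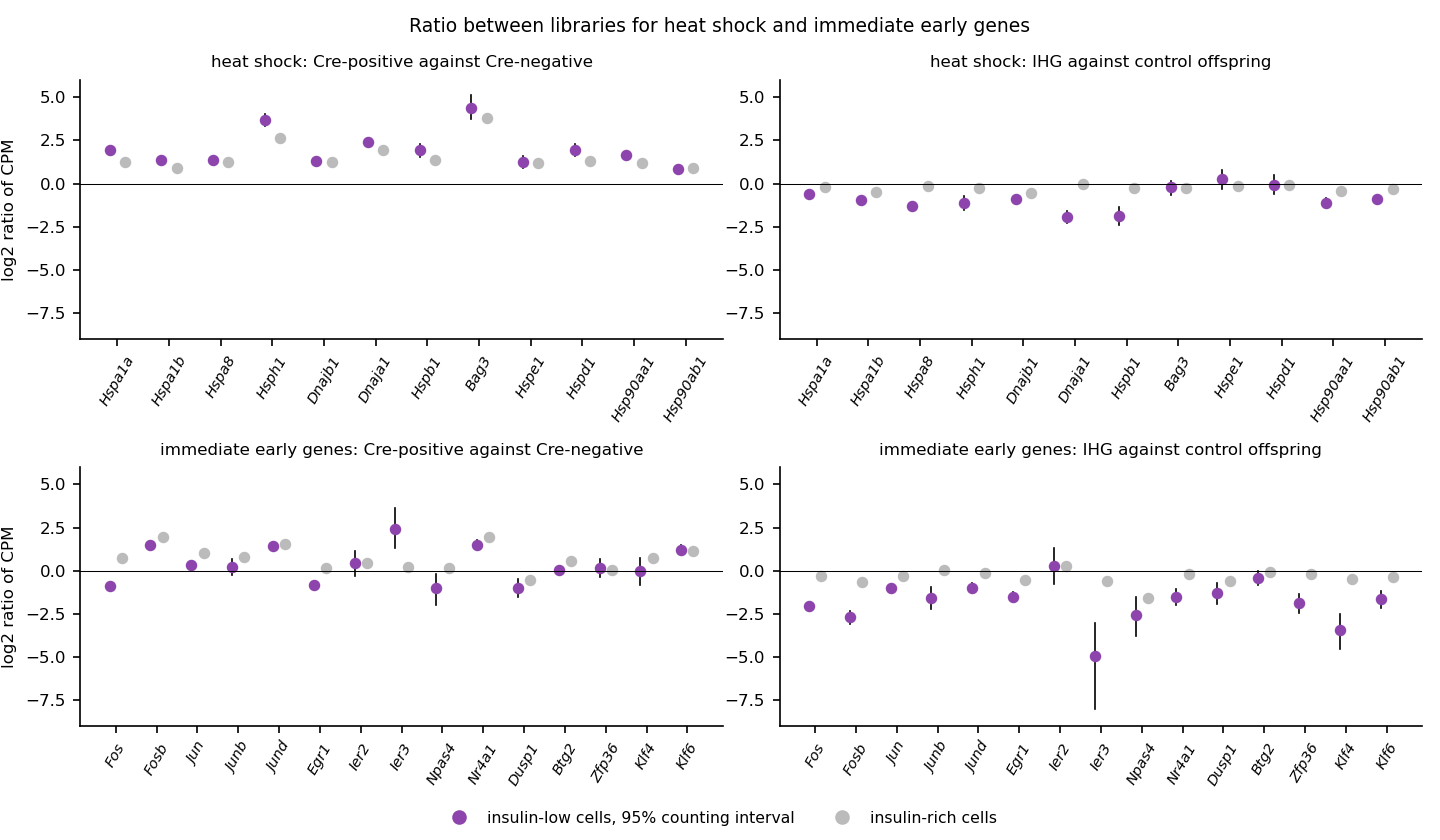
Log2 ratio of summed CPM between libraries (y axis) for 12 heat shock genes (top) and 15 immediate early genes (bottom), Cre-positive against Cre-negative at left and IHG against control offspring at right, with purple for insulin-low cells and their 95% counting interval and grey for insulin-rich cells. All 12 heat shock genes lie above 0 at left (median 1.79) and 13 of 15 immediate early genes are lower at right (median -1.58, against -0.32 in insulin-rich cells).

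Of the progenitor genes measured, 4 of 5 were lower and none higher in the Cre-positive members with all cells. Without marker-carrying cells 4 of 6 were lower and 1 higher (median log2 ratio -2.97 and -2, against -1.23 in insulin-rich cells for the first set). Measured genes needed 20 CPM in either library, which Fev and Dlk1 reached in the Cre-negative library only. Aldh1a3, at 17.2 CPM in Cre-positive members and without a UMI in Cre-negative ones, was not counted. The filter thus helped to set these counts, and they are no support for a difference of the whole list. Fev stood at 17.2 CPM in Cre-positive and 141 CPM in Cre-negative members, a ratio of 0.123 (0.0248 to 0.369) that rests on 3 and 94 UMIs. Dlk1, an imprinted gene of endocrine and other precursors, had 3 UMIs in Cre-positive and 111 in Cre-negative members, 45 of the 111 in 1 cell (17.2 and 166 CPM), and 13.5 and 289 CPM in insulin-rich cells. Penk had 1 UMI in Cre-positive and 100 in Cre-negative members, 26-fold lower (4.57 to 1039), with 44 of the 100 in 1 cell.

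Of 10 measured beta cell markers, 3 were higher and 2 lower in the Cre-positive members, and 3 and 3 without marker-carrying cells (median log2 ratio 0.12 and 0.10). Mafa stood at 138 CPM in Cre-positive and 25.4 CPM in Cre-negative members (ratio 5.42, 2.79 to 10.8), Ucn3 at 436 and 10.5 CPM (41.7, 19.3 to 107) and G6pc2 at 592 and 182 CPM (3.24, 2.47 to 4.25). In insulin-rich cells the ratios were 1.19 for Mafa, 3.08 for Ucn3 and 0.866 for G6pc2. Pcsk1 (ratio 0.430, 0.234 to 0.735) and Ppp1r1a (0.400, 0.218 to 0.682) were lower, as was the imprinted proteolipid gene Nnat, with 34.5 and 265 CPM (0.130, 0.0471 to 0.289; 1.03 in insulin-rich cells). Slc2a2 had 109 and 175 CPM (0.624, 0.363 to 1.02), and without marker-carrying cells it was lower (0.491, 0.229 to 0.94). The list therefore held differences in both directions within insulin-low cells. Whether ratios differ between insulin-low and insulin-rich cells was not tested.

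The 12 genes with the largest increase in the Cre-positive members were Flt1, Plvap, Kdr, Nrp1, Ly6c1, Igfbp3, Srgn, Col4a2, Tie1, H2-Eb1, Plpp1 and Epas1, vessel and immune genes set against 1 to 3 Cre-negative UMIs. Flt1 had 155 UMIs in Cre-positive and 1 in Cre-negative members (ratio 595, 105 to 23662), all 155 from 5 marker-carrying cells. Endothelial genes (9 of 9) and macrophage genes (10 of 10) were higher with all cells. Without those cells, which were chosen by these lists, 1 endothelial and 0 macrophage genes were measured, and none was higher. Of interferon and antigen presentation genes, 6 of 9 were higher with all cells and 2 of 5 without those cells. Without marker-carrying cells the largest increases were Adh1 (ratio 70.8, 10.8 to 2993, on 14 and 1 UMIs), Gprc5a, Fosl2 (48, 11.6 to 425), Cd79a, Ucn3 (37.9, 13.4 to 148), Gpr6, Id3, Mob3a, Tat, Tppp, Bag3 (27.8, 16.7 to 48.8) and S100z. The largest decreases with all cells included Penk, Rbms3, Rcn1, Smarcad1, Sv2b, Zkscan1, Tenm2, Dlk1, Nadk2, Zbtb44 and Mrps14, and 11 of the 12 largest rest on 1 or 2 Cre-positive UMIs. Without marker-carrying cells Ddit4 (16.4-fold lower, 5.55 to 80.1) and Ndufa4 joined them.

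The floxed genes were near the limit of detection in these few cells. Tet2 (chromosome 3, 133463679 to 133545139, minus strand) had 12 UMIs in Cre-positive and 48 in Cre-negative members, 68.9 and 71.8 CPM (ratio 0.960, 0.464 to 1.83). Tet3 (chromosome 6, 83362373 to 83459084, minus strand) had 5 and 33 UMIs, 28.7 and 49.3 CPM (0.582, 0.177 to 1.5). A difference of 1.5-fold in either direction lies within both intervals. Of 12 measured genes of the TET, DNMT and partner list, 1 was higher and 1 lower, and without marker-carrying cells 1 and 2.

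Between IHG and control offspring insulin-low cells, immediate early and heat shock genes were lower and granule genes in part higher in IHG offspring. The sums held 161297 and 147480 UMIs. Of 8961 genes measured, 2275 were at least 1.5-fold higher (25.4%) and 2474 lower (27.6%), and with the counting interval 362 were higher (4.04%) and 571 lower (6.37%). Without marker-carrying cells these were 175 (1.96%) and 227 (2.55%) of 8910. The control offspring members included 12 marker-carrying cells of 34, against 2 of 30 in IHG offspring.

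Of 15 immediate early genes 13 were lower and none higher in IHG offspring, and without marker-carrying cells 12 were lower and none higher (median log2 ratio -1.58 and -1.36; -0.04 and -0.10 for all genes). Fos (chromosome 12, 85473890 to 85477273, plus strand), a subunit of the transcription factor AP-1, stood at 1215 CPM in IHG and 4963 CPM in control offspring members, a ratio of 0.245 (0.208 to 0.287). UMIs of it were found in 22 of 30 and 34 of 34 cells. Fosb stood at 440 and 2807 CPM (0.157, 0.120 to 0.202) and Egr1 at 986 and 2794 CPM (0.353, 0.292 to 0.425). In insulin-rich cells the ratios were nearer to 1, at 0.816 for Fos, 0.626 for Fosb and 0.677 for Egr1. Without marker-carrying cells Fos had a ratio of 0.235 (0.197 to 0.280) and the activity-regulated gene Arc 40.8 CPM in IHG and 583 CPM in control offspring members (14.3-fold lower, 6.12 to 40.8). With all cells Klf4 had 62 CPM in IHG and 664 CPM in control offspring members (0.0933, 0.0434 to 0.179). Without marker-carrying cells it had 6.8 and 198 CPM, on 1 and 17 UMIs (0.0343, 0.000821 to 0.219).

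Of 12 heat shock genes 9 were lower and none higher in IHG offspring, in both sets of cells (median log2 ratio -0.91 and -1.18, against -0.27 in insulin-rich cells). Dnaja1 stood at 533 CPM in IHG and 2014 CPM in control offspring members (0.265, 0.206 to 0.338), Hspa8 at 1277 and 3194 CPM (0.400, 0.338 to 0.472) and Hspb1 at 273 and 997 CPM (0.274, 0.191 to 0.386). The insulin-rich ratios were 0.986 for Dnaja1, 0.893 for Hspa8 and 0.838 for Hspb1. Of 20 ER chaperone and unfolded protein response genes 2 were lower, Hspa5 (0.436, 0.376 to 0.504) among them, and without marker-carrying cells 4. Of 10 measured genes of the integrated stress response 4 were lower, and 2 of 12 without those cells.

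Granule genes were higher in part: 8 of 18 with all cells (median log2 ratio 0.48) and 3 of 18 without marker-carrying cells (0.14), with none lower. Chgb stood at 7024 CPM in IHG and 3167 CPM in control offspring members (2.22, 1.99 to 2.48; 1.52, 1.36 to 1.70, without marker-carrying cells), and in insulin-rich cells the ratio was 1.29. Iapp stood at 56963 and 34703 CPM (1.64, 1.59 to 1.70), and at a ratio of 1.36 (1.31 to 1.41) without those cells. Mafa stood at 149 CPM in IHG and 278 CPM in control offspring members (0.535, 0.309 to 0.907). The IHG level rests on 24 UMIs in 4 of 30 cells, 12 of them in 1 cell and 8 in 1 marker-carrying cell. Without marker-carrying cells the interval of Mafa included 1 (0.584, 0.273 to 1.25). Of 11 beta cell markers 1 was higher and 1 lower, and none in either direction without those cells. Slc2a2 (0.637, 0.357 to 1.12), G6pc2 (0.745, 0.515 to 1.07), Ucn3 (0.717, 0.462 to 1.11), Fev (1.55, 0.746 to 3.34) and Neurog3 (2.09, 0.813 to 6.01) had intervals that included 1.

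Gpx3 was higher in IHG offspring members, at 440 and 102 CPM (4.33, 2.46 to 8.14; 3.19, 1.75 to 6.28, without marker-carrying cells; 2.64 in insulin-rich cells). It was found in 18 of 30 IHG and 6 of 34 control offspring cells. Of 8 measured proliferation genes 6 were higher, and 5 without marker-carrying cells, but 96 of the 98 list UMIs in IHG offspring came from 1 cell. The Cre-positive, Cre-negative and control offspring members held 5, 8 and 1 UMIs of that list.

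The largest decreases in IHG offspring were Rgs5, Mgp, Ier3, Rgs4, Id1, Rnd1, Socs3, Cdc42ep2, Ace, Atf3, Sipa1l2 and Tnfrsf10b. Rgs5, a pericyte gene, had 1 UMI in IHG and 285 in control offspring members (312-fold lower, 55.5 to 12354), from 11 cells, and none of the control UMIs remained without marker-carrying cells. Endothelial genes (8 of 9) and mesenchymal genes (4 of 6) were lower with all cells. Without marker-carrying cells, which were chosen by these lists, 1 endothelial and 0 mesenchymal genes were measured. The largest increases were Ambp, Smchd1, Dut, Fbxo44, Ap3s2, Pigc, B4galt7, Ckap2, Man2c1, Ptgr2, Rbm22 and Rfx3, each set against 1 control UMI. Ambp, a plasma protein precursor, had 25 and 1 UMIs (22.9-fold higher, 3.74 to 939), 13 of the 25 in 1 cell. Without marker-carrying cells Ambp, Stmn1 and Ctsd led the increases and Klf4, Rgs4, Atxn1, Klf2 and Arc the decreases. Tet2 had 4 UMIs in IHG and 10 in control offspring members (0.366, 0.0837 to 1.27). Without marker-carrying cells it had 3 and 9 UMIs, and the interval excluded 1 (0.195, 0.0339 to 0.78). Of 12 measured genes of the TET, DNMT and partner list none was higher or lower with all cells, and 1 was lower without marker-carrying cells.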

How the data were processed

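Islet cells of 4 libraries, 1 per group, were measured as 3' UMI counts. The deposited matrices hold whole-number counts per gene and cell barcode. Per the submitters' processing notes the authors used Cell Ranger, Seurat and mm10, with no version or role given. The strand setting of the counting was not stated, so antisense and overlapping genes are uncertain. The matrices list 32285 genes, and 32235 were found in GENCODE vM21 (GRCm38) for coordinates.

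Kept cells had at least 500 genes and no more than 20% mitochondrial UMIs. Sums of UMIs were made for each class of each library, and the 21 rule and mitochondrial genes were left out of totals and tests. Insulin-low and insulin-rich sums were tested with edgeR 4.0.16 (quasi-likelihood test, TMM, library as a block) in R 4.3.3, with DESeq2 1.42.0 as an alternative. The block pairs both classes of 1 library, which share mice, dissociation and run. Since each condition is 1 library, the 4 pairs also differ in condition. Conditions were compared by ratios of CPM for genes with 20 CPM or more, with exact 95% intervals of counting error. A UMI floor of 3 applies where a group has no UMI. On simulated counts for 12900 genes the low-against-rich test recovered 95 of 100 genes changed 4-fold and 48 of 100 changed 2-fold, and called 6 unchanged genes. These counts had 1 common dispersion (0.0374) for all genes and the same change in each pair. The real pairs differ in condition, and single cells can hold many UMIs of a gene. The simulation therefore gives no error rate for the real data.

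The members and gene lists were chosen with earlier results of these data known. Named genes were the 12 with the largest change in each direction, predicted genes skipped: for insulin-low against insulin-rich cells among genes past the adjusted p of 0.05, moving 1 way in 4 of 4 libraries and at 20 CPM or more in the higher class, and between conditions among genes at 20 CPM or more in 1 library whose interval excludes a ratio of 1. From each list the 2 to 4 members with the largest change were named, and members beyond these were chosen after their values were seen. Some genes that this rule picks are not reported here. Alternatives were other size factors, filters, UMI minimums, insulin ranges, matched depth, doublet scores (top 6%, expected rate 0.06), thinning to 2000 UMIs, leaving out each library, and leaving out marker-carrying cells. The set of marker-carrying cells without the ductal list was chosen after seeing the data. Python 3.11.15 with numpy 2.4.6, scipy 1.17.1, pandas 2.3.3, scanpy 1.11.5 and matplotlib 3.10.9 was used.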

Additional observations from a re-analysis of the deposited data

Results flagged for a closer look

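Cd34, an endothelial gene, was flagged because 1 library stood far from the other 3. Its log2 ratio of insulin-low over insulin-rich CPM was 0.62 in the Cre-negative library, against 4.84 to 5.65 in the others. It stood at 126 CPM in Cre-positive, 1.5 CPM in Cre-negative, 130 CPM in IHG and 183 CPM in control offspring insulin-low cells, against 3.63, 0.974, 4.54 and 3.64 CPM in insulin-rich cells in that library order. The Cre-negative value rests on 1 UMI, and that library held 2 members with 3 or more endothelial UMIs. A gap of this size is flagged by chance in a small share of groups, and its cause was not tested.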

How the results depend on the processing

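Higher and lower calls of insulin-low against insulin-rich cells depended on the cells kept and on the scaling, and the causes were not tested. Without the library block, that is, without the pairing of both classes of 1 library, 73 genes were called higher and 65 lower, against 576 and 324 with it. Leaving out each library in turn gave 352 to 704 higher and 266 to 409 lower, with 352 higher without control offspring. Leaving out cells with non-endocrine markers gave 107 higher and 154 lower with the ductal list used and 209 higher without it, where the cells removed carry those markers by construction. An insulin range of 5 to 10% gave 330 higher, rule genes in the totals 1840 higher and 80 lower, and DESeq2 155 lower. All other settings tried for these counts stayed within 1.5 times. Between libraries, a minimum of 5 CPM gave 3511 genes at least 1.5-fold higher in Cre-positive cells, and 3534 higher and 3807 lower in IHG offspring cells; 50 CPM gave 1050 higher and 1182 lower, and 1175 higher and 1237 lower. Without cells carrying non-endocrine markers the log2 ratio turned to 0.13 for Zbtb44 and 0.07 for Mrps14 (Cre-positive against Cre-negative), and to -0.06 for Ptgr2, 0.53 for Ier3, 1.11 for Cdc42ep2 (0.81 with the ductal list not used) and 1.11 for Sipa1l2 (IHG against control offspring); thinning to 2000 UMIs turned Pigc to -0.40. Each was named on 1 to 3 UMIs in 1 of its libraries. The share of insulin-low cells was 0.49% in the Cre-positive and 0.451% in the control offspring library with a minimum of 1000 UMIs. With 5000 UMIs it was 0.188% in the Cre-positive, 1.4% in the Cre-negative, 0.151% in the IHG and 0.0889% in the control offspring library, and of insulin-low plus insulin-rich cells 1.19%, 3.72%, 0.506% and 0.325%. At 5 to 10% insulin it was 1.47% in the Cre-negative library. Unthinned, 3 or more alpha UMIs were found in 41.9% of Cre-positive, 59.8% of Cre-negative and 40% of IHG offspring members, and 3 or more delta UMIs in 25.8% of Cre-positive members and in 38.3% of Cre-negative ones. Sums of 147480 to 668700 UMIs per library limit every comparison of low genes.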
